A study of Mus musculus with 10 samples.

Results

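The alpha-arrestins are a small family of membrane adaptors, and in the mouse they comprise *Txnip* and the *Arrdc* genes. Thioredoxin-interacting protein, the product of *Txnip*, binds thioredoxin and restrains glucose uptake by drawing glucose transporters from the cell surface. Its transcription is driven by glucose through ChREBP or MondoA, each paired with Mlx, at a carbohydrate response element. The Arrdc proteins carry PPxY motifs that recruit ubiquitin ligases of the Nedd4 family to membrane cargo, which is then sorted into endosomes. In the liver the family is best known for *Txnip*, which follows carbohydrate intake and fasting.

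Levels of the 5 family members *Txnip*, *Arrdc1*, *Arrdc2*, *Arrdc3* and *Arrdc4* were read from liver RNA-seq of *db/db* mice. The 5 genes were taken by symbol from the 15126 genes of the deposited table, and they were chosen by their measured CPM, with earlier results of these data known. The 5 *db/db* AAV8-Control livers are described, out of 10 libraries in the series. They came from male *db/db* mice, which lack a working leptin receptor and are obese and diabetic, at 10 weeks of age and 5 weeks after injection of an adeno-associated virus of serotype 8 (AAV8) encoding eGFP. The vector was given by tail vein, its promoter was not given in the sources used here, and there were no lean mice among the sequenced samples. The labels list separate samples without tying each to its own animal, so the standard deviations measure the spread between these libraries. Each library is called a liver below. They also give both liver as the tissue and primary hepatocytes as the cell type.

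Total reads counted on genes ranged from 19499795 to 35498596, so that 1 read was worth 0.0282 to 0.0513 CPM, the unit of reads scaled to the library total. Hepatocyte markers were abundant, with *Alb* ranging from 80000.3 to 111611 CPM. Markers of other liver cells were present too, and summed to 134 to 270 CPM for Kupffer cells and macrophages, 120 to 227 CPM for sinusoidal endothelium, 286 to 386 CPM for stellate cells and 33.5 to 53.9 CPM for cholangiocytes. Erythroid markers summed to 236 to 297 CPM. Neutrophil markers reached at most 1.75 CPM, lymphoid markers 3.95 CPM and muscle and fat markers 1.64 CPM in any library. *Ly6g*, *Ckm*, *Hecw1* and *Arrdc5* were not analysed here. In whole tissue, fewer cells of a type and less RNA per cell cannot be told apart.

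All 5 members were detected in every liver. *Arrdc3* had the highest mean, followed by *Txnip*, and *Arrdc1* was lowest. The members also differed in their spread. *Arrdc3* varied more between livers than almost all genes of the liver, whereas the spread of *Arrdc4* was below that of the median gene.

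*Txnip* (ENSMUSG00000038393) is on chromosome 3 of GRCm38, forward strand, between 96557957 and 96561883. Its promoter is shown because it holds a paired pattern that fits a carbohydrate response element. No other member's promoter matched this pattern, the only paired form of the element searched. The 200 bases before its RefSeq start, at chr3:96557757-96557956 of GRCm38.p6 on the forward strand, read as follows, with motif matches in capitals.
Txnip: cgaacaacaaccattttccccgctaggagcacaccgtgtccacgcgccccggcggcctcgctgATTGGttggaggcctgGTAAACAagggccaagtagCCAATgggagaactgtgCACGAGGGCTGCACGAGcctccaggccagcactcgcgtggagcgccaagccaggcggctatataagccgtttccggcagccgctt

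Reading 5′ to 3′, the capitals are a CCAAT box on the reverse strand, a forkhead motif, a CCAAT box on the forward strand and a pair of E-box-like repeats. The pair, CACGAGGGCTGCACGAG, begins 85 bases before the start and fits the pattern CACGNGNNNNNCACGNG, the usual spacing of a carbohydrate response element. Windows of 300 bases, from 250 before to 50 after each start, were searched on both strands. This pattern was present in 16 of 32851 mouse promoters, or 0.0487%. It was chosen after the sequences were seen, so its match in *Txnip* and its absence from the other members are no test. No gene of the ChREBP target list described below was among the matches, so lacking this pattern does not show that a gene lacks the element. The forkhead letters GTAAACA, 121 bases before the start, occurred in 3.65% of promoters and in no other member's, and CCAAT in 37.4% of promoters. Of the 15 genes with the paired pattern, 10 were in the table and 8 averaged 1 CPM or more. Among these 8, *Man2b2*, a lysosomal mannosidase gene, at 63.0 CPM was the single gene with a mean CPM above that of *Txnip*. This comparison was not corrected for gene length.

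*Txnip* was at 50.7, 63.7, 56.9, 49.0 and 51.3 CPM in AAV8-Control replicates 1 to 5. Replicate 2 was highest, and replicates 1, 4 and 5 lay close together at the low end. The mean was 54.3 ± 6.00 CPM (SD, n = 5 livers), and the highest liver was 1.30 times the lowest. These values rest on 989 to 2019 reads per library. The SD was 11.04% of the mean, where counting error alone gives 2.81%. Of the 3123 exonic bases of *Txnip*, 606 are shared with *Gm15441*, an antisense gene on the opposite strand. The study's methods describe no step that keeps strand. If strand was not kept, reads in that stretch cannot be assigned to either gene. The authors counted only unambiguous reads, so that such reads would be missing from *Txnip* wherever their annotation held *Gm15441*, which was not analysed here.

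*Arrdc3* (ENSMUSG00000074794) encodes an adaptor that is linked to body mass in mice and people. The gene lies on the forward strand of chromosome 13, from 80883384 to 80896042. The promoter listed first for it in RefSeq is shown, as that of the member nearest to *Txnip* in level per kilobase of exon. This promoter lacks the paired pattern, and the use of each promoter was not measured. The bases before its first RefSeq start, at chr13:80883184-80883383 of GRCm38.p6 on the forward strand, were read in the same way.
Arrdc3: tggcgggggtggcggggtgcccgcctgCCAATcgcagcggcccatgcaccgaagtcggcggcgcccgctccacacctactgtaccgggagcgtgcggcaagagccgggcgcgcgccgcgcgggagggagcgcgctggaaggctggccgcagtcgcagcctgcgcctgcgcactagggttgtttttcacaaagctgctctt

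A CCAAT box, 173 bases before the start, was the only match to any of the 4 motifs searched there. Its other annotated promoters, 2 in number, held this same CCAAT box in one, whose start lies close by, and no match in the other. No match means only that these letters are not in these windows.

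*Arrdc3* was at 77.5, 235, 135, 197 and 149 CPM in AAV8-Control replicates 1 to 5. The livers were spread over the whole range, with replicate 2 at the top and replicate 1 at the bottom. The mean was 159 ± 60.3 CPM (SD, n = 5 livers), and the highest liver was 3.03 times the lowest. With 1511 to 5410 reads per library, counting error gives 1.78% of the mean, against a measured SD of 38.0%.

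**Figure D1:**
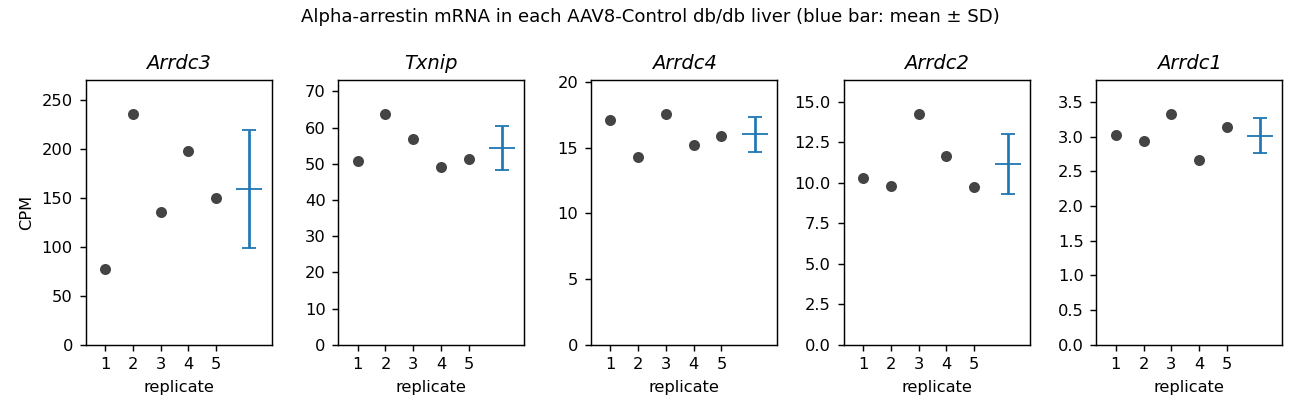
CPM of each alpha-arrestin (vertical axes, each from 0 and with its own range) in the AAV8-Control livers, one point per liver by replicate number (horizontal axes), with a blue bar for the mean ± SD of 5 livers. *Arrdc3* runs from 77.5 to 235 CPM, while *Txnip* stays between 49.0 and 63.7 CPM and *Arrdc1* between 2.66 and 3.32 CPM.

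*Arrdc4* (ENSMUSG00000042659), a close relative of *Txnip* that also limits glucose uptake and responds to MondoA, is on chromosome 7, reverse strand, between 68736995 and 68749241. Its promoter is shown as that of the member nearest to *Txnip* in known regulation. The bases before its RefSeq start, at chr7:68749239-68749438 on the reverse strand, were as follows.
Arrdc4: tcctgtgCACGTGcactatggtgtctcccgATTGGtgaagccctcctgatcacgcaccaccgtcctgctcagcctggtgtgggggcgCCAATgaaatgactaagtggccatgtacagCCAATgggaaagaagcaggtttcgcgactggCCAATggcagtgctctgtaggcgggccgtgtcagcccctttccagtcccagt

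Here the capitals are a full E-box, CACGTG, 193 bases before the start, a CCAAT box on the reverse strand and 3 on the forward strand. The E-box letters occurred in 7.15% of promoters. An E-box can overlap the paired pattern, but no member's promoter held both. In the whole window of 300 bases CCAAT occurred 6 times on either strand, and the paired pattern was not found.

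*Arrdc4* was at 17.1, 14.3, 17.55, 15.2 and 15.9 CPM in AAV8-Control replicates 1 to 5. Replicate 2, the highest liver for both *Txnip* and *Arrdc3*, was the lowest for *Arrdc4*. The mean was 16.0 ± 1.34 CPM (SD, n = 5 livers), and the highest liver was 1.23 times the lowest. The SD was 8.35% of the mean and counting error gives 5.18%, from 297 to 623 reads per library.

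*Arrdc2* (ENSMUSG00000002910), another Nedd4 adaptor, is on chromosome 8, reverse strand, between 70835129 and 70839720. It was at 10.3, 9.82, 14.2, 11.7 and 9.76 CPM in AAV8-Control replicates 1 to 5. Replicate 3 was highest and replicates 1, 2 and 5 were nearly level. Its mean was 11.2 ± 1.88 CPM (SD, n = 5 livers), and the highest liver was 1.46 times the lowest. The SD was 16.8% of the mean, against 6.31% from counting 201 to 505 reads. Its promoter held 3 CCAAT boxes and no other match.

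*Arrdc1* (ENSMUSG00000026972), which recruits the endosomal protein Tsg101 to the plasma membrane and gives rise to budding vesicles, is on chromosome 2, reverse strand, between 24925352 and 24935252. It was at 3.03, 2.94, 3.32, 2.66 and 3.14 CPM in AAV8-Control replicates 1 to 5, with replicate 3 highest and replicate 4 lowest. Its mean was 3.02 ± 0.247 CPM (SD, n = 5 livers). Only 59 to 118 reads per library fell on it, and counting error alone gives 11.9% of the mean, which exceeds the measured SD of 8.17%. A difference between livers was therefore not detectable for *Arrdc1* at this depth. None of the motifs was found in its promoter.

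Per kilobase of exon, the members fell into an upper and a lower tier. *Arrdc3* was at 25.4 ± 9.63 CPM per kilobase and *Txnip* at 17.4 ± 1.92 (SD, n = 5 livers). The range of *Arrdc3*, 12.4 to 37.5 CPM per kilobase, enclosed that of *Txnip*, 15.7 to 20.4, so on this length their order was not fixed across livers. Below them came *Arrdc4* at 3.97 ± 0.331, *Arrdc2* at 3.45 ± 0.581 and *Arrdc1* at 1.20 ± 0.0982 CPM per kilobase. *Arrdc4* and *Arrdc2* overlapped, whereas the ranges left gaps between *Txnip* and *Arrdc4* and between *Arrdc2* and *Arrdc1*.

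Within a library, the ratio of *Arrdc3* to *Txnip* per kilobase was 0.761 to 2.005 (median 1.45), and *Arrdc3* was the higher in 4 of 5 livers, the exception being replicate 1. *Txnip* stood 3.83 to 5.76 times above *Arrdc4* and 4.14 to 6.71 times above *Arrdc2*. *Arrdc4* was above *Arrdc2* in 4 of 5 livers, with ratios of 0.987 to 1.33, and fell just below it in replicate 3. When the longest transcript was used as the length, *Arrdc2*, at 4.74 CPM per kilobase, passed *Arrdc4*, at 4.10, so the order of that pair depends on the gene model. On that length *Arrdc3* was above *Txnip* in 5 of 5 livers, replicate 1 included, at 1.05 to 2.75 times its level, so the exception depends on the gene model too. Over the 2517 bases of *Txnip* not shared with *Gm15441*, a length added after values were seen, the whole count of *Txnip* came to 21.6 ± 2.38 CPM per kilobase (SD, n = 5 livers), and *Arrdc3* was above it in 3 of 5 livers, with ratios of 0.614 to 1.62. This is the level of *Txnip* on that length only if no read of the shared bases was counted for it, and otherwise an upper limit. A shorter gene model would give a higher level. How many livers had *Arrdc3* above *Txnip* thus depended on the length used. Of the summed level of the 5 members per kilobase, *Arrdc3* made up 33.2% to 57.1% and *Txnip* 28.2% to 43.6%, and *Arrdc1* at most 3.24%.

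**Figure D2:**
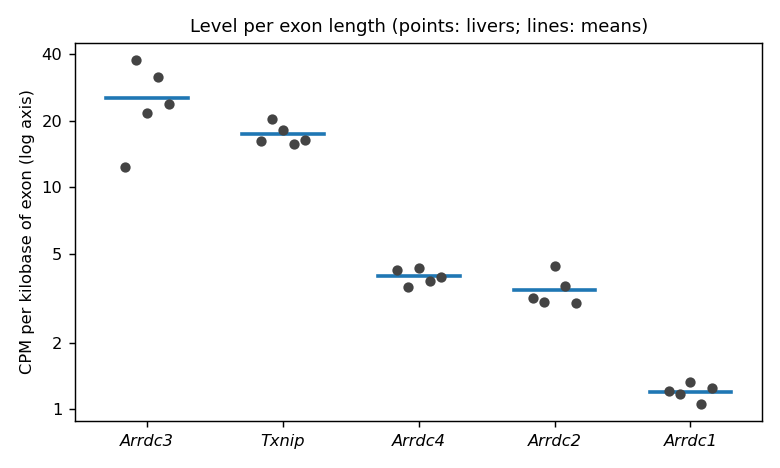
CPM per kilobase of exon (vertical log axis) of each member in each AAV8-Control liver, with lines for the means of 5 livers. *Arrdc3* and *Txnip* form the upper tier, with *Arrdc3* spanning 12.4 to 37.5, and *Arrdc1* is lowest at 1.20 on average.

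Set beside the 11041 genes that averaged 1 CPM or more, the upper tier was well above the median of 3.24 CPM per kilobase. *Arrdc3* was above 88.0% of these genes and *Txnip* above 84.2%. *Arrdc4* was above 55.4% and *Arrdc2* above 51.9%, near the middle of the liver's genes. *Arrdc1* was above 25.1%.

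The spread between livers was compared on the log2(CPM + 1) scale. *Arrdc3* had an SD of 0.609, larger than that of 99.2% of the 11041 genes, whose median SD was 0.137. Among the 749 genes with a mean at or above its own, 10 had a larger SD. *Arrdc2* had an SD of 0.211, above 77.9% of genes, but its rank ran from 36.0% to 85.7% with single livers left out, and its SD was 0.109 without replicate 3. *Txnip* had 0.151, above 57.0%. *Arrdc4* had 0.114, above 37.0%, and *Arrdc1* 0.0895, the smallest of the 5. With each liver left out in turn, *Arrdc3* was above 94.96% to 99.5% of genes, although without replicate 1 its SD fell to 0.364. *Txnip* was above 24.3% to 68.2%, and its SD was 0.0907 without replicate 2. These ranks compare genes within 5 libraries and carry no test.

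**Figure D3:**
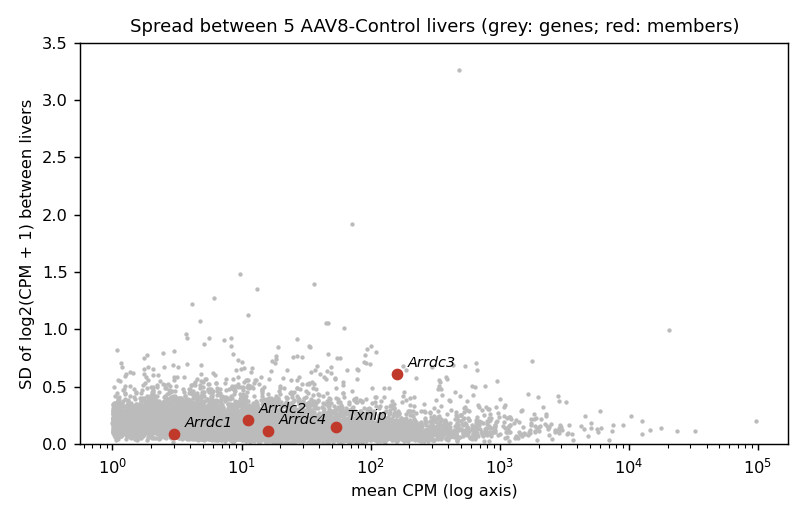
SD of log2(CPM + 1) between the 5 AAV8-Control livers (vertical axis) against mean CPM (horizontal log axis) for the 11041 genes (grey) and the 5 members (red). *Arrdc3*, at an SD of 0.609, lies above nearly all genes of its level, and the other members, at 0.0895 to 0.211, lie within the bulk.

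The members' pathways were read from 12 gene lists, whose members were compared per kilobase of exon. Except for the ChREBP target genes, the highest gene of each list is named, with others picked for their known link to a member or their spread, all chosen after their values were seen. The thioredoxin system, the redox partner of *Txnip*, was abundant. Its 14 genes of 15 that averaged 1 CPM or more had a median level of 27.6 CPM per kilobase, and 9 of them were above *Txnip*. *Txn1*, which encodes the cytosolic thioredoxin that TXNIP binds, was at 185 ± 3.28 CPM per kilobase and mitochondrial *Txn2* at 50.2 ± 4.07 (SD, n = 5 livers). The median SD of these genes on the log2 scale was 0.0954, against 0.137 over all genes, although *Srxn1*, the sulfiredoxin gene, had 0.311.

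The factors that read glucose at the carbohydrate response element were unequal in level. *Mlxipl*, which encodes ChREBP, was at 55.4 ± 8.64 CPM per kilobase and *Mlx*, its partner, at 14.5 ± 0.862 (SD, n = 5 livers). *Mlxip*, the gene of MondoA, was at 0.903 ± 0.118. *Mlxipl* was the only gene of the 9 of this network past 1 CPM that stood above *Txnip*.

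The 21 ChREBP target genes, all past 1 CPM, had the highest median level of the lists, 89.1 CPM per kilobase, and 16 of them were above *Txnip*. They also had the widest spread, with a median SD of 0.439 on the log2 scale. In 6 of them the SD exceeded that of *Arrdc3* over all 5 livers, and no gene of the other lists did. That count rested on single livers: it was 2 without replicate 4, 3 without replicate 3, 8 without replicate 2 and 12 without replicate 1, and in the last 2 cases 2 and 7 genes of the other lists exceeded *Arrdc3* too. *Fasn*, the fatty acid synthase gene, was at 1891, 1911, 2782, 715 and 1639 CPM in replicates 1 to 5. *Acly*, which makes cytosolic acetyl-CoA, was at 553, 762, 1081, 287 and 587 CPM. *Rgs16*, a regulator of G protein signalling, was at 44.3, 159, 97.9, 89.2 and 56.1 CPM. For *Fasn* and *Acly* replicate 3 was highest and replicate 4 lowest, whereas replicate 4 was second highest for *Arrdc3*. For *Rgs16*, as for *Arrdc3*, replicate 2 was highest and replicate 1 lowest, but replicates 3, 4 and 5 came in a different order. With 5 livers no correlation was computed.

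Among the glucose transporters, *Slc2a2*, the main transporter of hepatocytes, was at 64.2 ± 4.51 CPM per kilobase, *Slc2a9*, a urate carrier, at 11.6 ± 0.494 and *Slc2a1*, a cargo of TXNIP, at 3.07 ± 0.438 (SD, n = 5 livers). Of the 10 listed, 5 averaged 1 CPM or more, and *Slc2a2* alone was above *Txnip*. The Nedd4 family was led by *Nedd4* itself at 25.1 ± 2.18 CPM per kilobase, followed by its adaptor *Ndfip1* at 19.9 ± 1.98 and the ligase *Wwp1* at 18.5 ± 0.814. Those 3 of the 10 genes past 1 CPM were above *Txnip*, and the median of the list was 4.48. *Txnip* came to 21.6 CPM per kilobase on its unshared exon bases, an upper limit for that length. At that level 1 gene of the Nedd4 list and 8 of the thioredoxin system were above it. The counts for the ChREBP target genes, the Mondo network and the glucose transporters stayed at 16, 1 and 1. Of the ESCRT and vesicle genes, *Tsg101*, the partner of *Arrdc1*, was at 8.33 ± 0.512 CPM per kilobase, against 1.20 for *Arrdc1*. The ESCRT-0 gene *Hgs* was at 20.3 ± 2.04.

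Relatives by fold, the beta-arrestins and Vps26 proteins, had a median of 5.40 CPM per kilobase over the 5 genes past 1 CPM, and none reached *Txnip*. *Vps26a*, a retromer subunit, was highest at 13.2 ± 0.843, and the beta-arrestin gene *Arrb2* was at 4.46 ± 0.377 and *Arrb1* at 1.11 ± 0.171 (SD, n = 5 livers). The inflammasome genes, with which TXNIP protein has been linked, had a median of 3.22 CPM per kilobase over the 4 of 6 that averaged 1 CPM or more, next to 3.24 over all genes at that level. *Il18* was the highest of them at 7.03 ± 0.903. The 9 genes of AMPK and its upstream kinase past 1 CPM had a median of 7.60, with *Stk11*, the kinase gene, highest at 12.3 ± 1.82.

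The 12 glucocorticoid-responsive genes had a median of 6.64 CPM per kilobase and a median SD of 0.287 on the log2 scale, with *Tat*, a tyrosine-degrading enzyme of hepatocytes, highest at 603 ± 122 CPM per kilobase. The FoxO factors and target genes had a median of 6.81 over 14 genes past 1 CPM, led by *Pck1*, a gluconeogenic enzyme, at 576 ± 165. The 10 clock outputs had a median of 4.95, with *Nr1d1*, which encodes the repressor REV-ERB alpha, highest at 42.7 ± 5.57 (SD, n = 5 livers). The time of day at which livers were taken was not given in the sources used here, which limits what the levels of clock outputs can be compared with. In spread, the median SD of these 3 lists was 0.178 to 0.287, and over all 5 livers no gene in them exceeded *Arrdc3*.

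**Figure D4:**
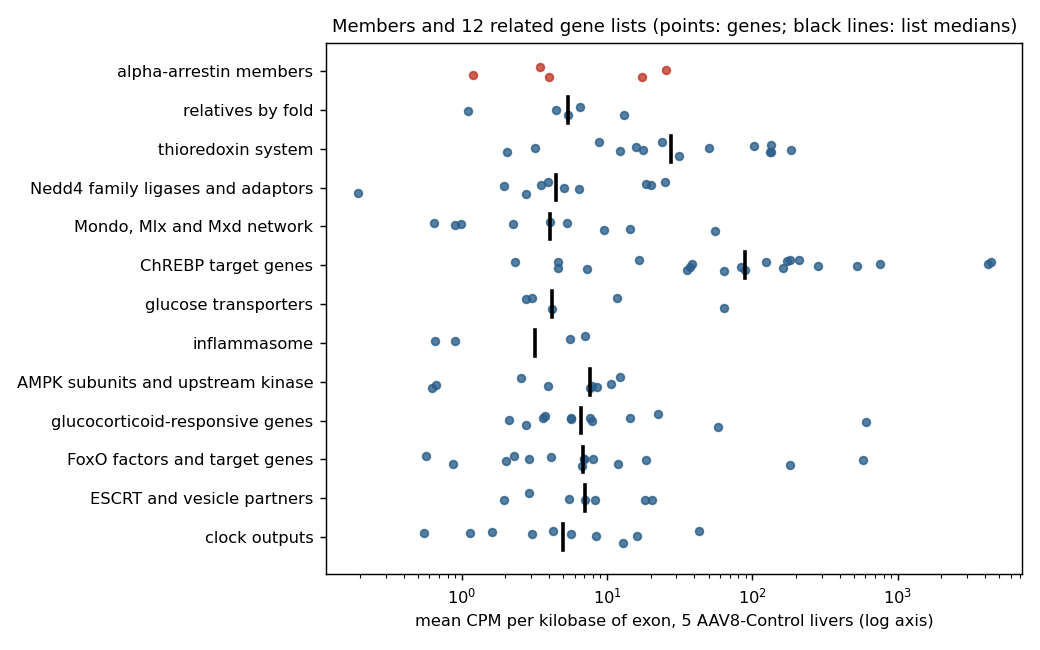
Mean CPM per kilobase of exon in the 5 AAV8-Control livers (horizontal log axis) for the members (red) and the genes of 12 related lists that averaged 1 CPM or more (blue), with black lines for list medians. The members run from 1.20 to 25.4, below the medians of the thioredoxin system (27.6) and the ChREBP target genes (89.1). *Arrdc3* was at 28.6 without replicate 1 and 38.4 with the longest transcript as length, for which the list medians were not recomputed.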

How the data were processed

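Poly-A selected liver RNA of *db/db* AAV8-Control mice (5 libraries) was sequenced as single reads of 50 bases. Results that need the other samples of the series, and some other items, are not reported here. Per the study's methods and the labels, the authors aligned reads with STAR 2.0.4b to GRCm38.p2 (Ensembl release 76) and counted unique reads on genes with featureCounts 1.4.5. The authors deposited CPM, by a step that is not given in the sources used here. Duplicate lines (110 of 15236) were dropped. Dividing by the CPM of a single read gave whole reads for 100% of values (tolerance 0.05). The libraries were not duplicates (lowest chi-square per degree of freedom 16.8).

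Means and SDs were computed with pandas 2.3.3 (Python 3.11.15). Counting error was taken as the square root of the mean of 1/reads over libraries, and it covers counting error only. Spread was the SD of log2(CPM + 1) among the 11041 genes that averaged 1 CPM or more, by scripts tested on simulated data. Positions and exon lengths came from GENCODE M21, matched for 15119 genes, and promoters from RefSeq (GRCm38.p6), matched for all 5 members. Motifs were chosen after the sequences were seen. The members and lists were chosen with earlier results of these data known. Alternatives were a pseudocount of 0.1, median-of-ratios size factors, the longest transcript or (for *Txnip*, added later) the unshared exon bases as length, and each library left out. No test between groups was run. The labels' culture and adenovirus protocol text was taken not to apply to these liver samples.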

Additional observations from a re-analysis of the deposited data

Results flagged for a closer look

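The highest and lowest libraries of 29 genes, the 5 members and the 2 highest genes of each list, were compared with the rest of the 5 AAV8-Control livers, and chance alone marks about 1 in 20 groups. No member stood apart. *Nr1d1* was at 101 CPM in AAV8-Control replicate 3, the lowest, where the other controls had 133 to 143 CPM.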

How the results depend on the processing

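Of 66 alternative values of the members' levels and spreads, 58 stayed within the spread between livers, or within 33.3% of the SD itself, and 8 moved further. With the longest transcript as length, *Arrdc1* was at 1.81, *Arrdc2* at 4.74 and *Arrdc3* at 38.4 CPM per kilobase, which follows from the shorter length. Over its unshared exon bases, chosen after seeing the data, *Txnip* was at 21.6 CPM per kilobase, an upper limit for that length only. With single livers left out, the SD on the log2 scale ranged from 0.0907 to 0.169 for *Txnip* (lowest without replicate 2), from 0.0584 to 0.103 for *Arrdc1* (without replicate 4), from 0.109 to 0.239 for *Arrdc2* (without replicate 3) and from 0.364 to 0.703 for *Arrdc3* (without replicate 1). A pseudocount of 0.1 and median-of-ratios size factors moved no SD that far. No paired analysis was possible because a single group is described. At 59 to 118 reads per library, counting error limits *Arrdc1* most among the members.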
